A study of Mus musculus with 6 samples.

Results

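The E proteins and their Id inhibitors were examined in a map of open chromatin of Beko cells. The 7 genes were taken by name and are the E protein genes Tcf3, Tcf4 and Tcf12 and the inhibitor genes Id1, Id2, Id3 and Id4, out of 22380 protein-coding genes of the annotation. For each gene, all accessible intervals (peaks) that lay in the gene body or within 50 kb on either side were collected, which gave 48 of 32527 peaks, 25 at the E protein genes and 23 at the Id genes. A peak was called an own-start peak when it lay within 1 kb of an annotated transcript start of the gene itself, and distal when it lay more than 1 kb from every annotated transcript start of any gene.

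Beko is a mouse leukemia pre-T cell line that the labels call a progenitor T cell and in which Notch signaling is constitutively active. Chromatin accessibility was measured by ATAC-Seq, in which a transposase inserts sequencing adapters into open DNA, in 3 libraries of cells treated for 24 h with DAPT, a γ-secretase inhibitor (GSI) that blocks the release of active Notch, and in 3 control libraries that received the solvent DMSO for the same 24 h. All libraries came from this line, and the labels do not say whether the 3 libraries of a treatment were separate cultures. The labels give the DAPT concentration as 10 mg/ml, while the methods of the study give the same figure in µg/ml. The authors combined the 6 libraries into 1 list that keeps a peak found in at least 3 of them, so that a peak can rest on a single treatment and the list does not say which. The list holds no value per library and its score is 0 in every line. Counts and widths below therefore have no replicate error, accessibility in GSI was not compared with that in DMSO, and read depth was not used here. A gene without a peak is a gene for which no interval passed the authors' calling, which is not the same as closed chromatin.

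E proteins are basic helix-loop-helix transcription factors. They bind DNA as dimers at the E-box, the letters CANNTG, of which the form CAGCTG is called the E-box core below. A peak without the core can hold other E-boxes. In lymphocyte progenitors E proteins drive T- and B-lineage genes such as those of the pre-T-cell receptor and of antigen receptor recombination. Id proteins keep the helix-loop-helix but lack the basic region that contacts DNA, so that an E protein paired with an Id protein cannot bind. The balance between both families sets E protein activity during thymocyte development. The label of the cells was read against marker genes of several lineages. Of 16 progenitor T-cell genes, 14 had an own-start peak and all 16 had a peak in their window, with a median of 10 peaks. Windows of neighbouring genes in the list, such as Rag1 and Rag2, overlap, so these counts are not independent. No own-start peak was listed at any of 7 B-cell, 6 myeloid or 4 epithelial marker genes, although peaks lay in the windows of most of them. All 3 erythroid genes, Gata1, Klf1 and Epor, had an own-start peak. Median counts in the window were 7 for the B-cell, 5 for the epithelial, 4 for the myeloid and 3 for the erythroid genes. Over all protein-coding genes the median was 3 peaks, 46.9% had an own-start peak and 77.2% had a peak in the window. A peak in the window was thus common in every list.

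Of the 7 genes, 6 had an own-start peak and the same 6 had at least 1 peak in their window, while Id4 had neither. Over all protein-coding genes, 46.9% had an own-start peak and 77.2% had a peak in the window. Id3 had 11 peaks, Tcf3 10, Tcf12 9, Id1 7, Tcf4 6, Id2 5 and Id4 0. Id3, an inhibitor that is induced by pre-T-cell receptor signaling, thus headed the order with more peaks than 95.1% of protein-coding genes, and Id4, known best from neural progenitors, ended it. The coding median was 3 peaks, with quartiles of 1 and 6, and lay below the count of all members but Id4. With no value per library, neighbours in this order, such as Tcf3 and Tcf12, cannot be told apart beyond a spread between libraries.

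The windows differed in length, from 101.16 kb at Id1 to 443.822 kb at Tcf4, which changed the order. Per 100 kb of window, Id3 had 10.8 peaks, Tcf3 8.06, Id1 6.92, Id2 4.89, Tcf12 2.45 and Tcf4 1.35, against a coding median of 2.38 with quartiles of 0.570 and 4.71. On this scale Id3 stood above 98.8% of coding genes and Tcf4 above 36.9%. The 4 Id genes together had 5.63 peaks per 100 kb over 408.321 kb, and the 3 E protein genes 2.67 over 935.524 kb. The 954 coding genes of at least 200 kb had a median of 2 peaks in their long windows, with quartiles of 0 and 6. Tcf4 equalled that upper quartile with its 6 peaks and Tcf12 passed it with 9. Short coding genes of under 5 kb, 5854 in all, had a median of 1 peak and quartiles of 0 and 5. Among the Id genes, all of this length, Id1 and Id3 lay above the upper quartile, Id2 lay on it, and Id4 lay at the lower quartile.

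The counts also depended on how far the window reached. With 10 kb on either side, Tcf4 kept 6 peaks and Tcf12 had 6, while Tcf3 and Id3 fell to 4 each and Id1 and Id2 to 3 each. With 100 kb, Id3 had 20 peaks, Tcf3 19, Id1 15, Tcf12 12, Id2 9 and Tcf4 again 6. The peaks of Tcf4 thus all lay within or close to the gene, whereas those of the short Id genes and of Tcf3 were mostly spread over the flanks. Id4 had 0 peaks at each of these reaches.

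**Figure D1:**
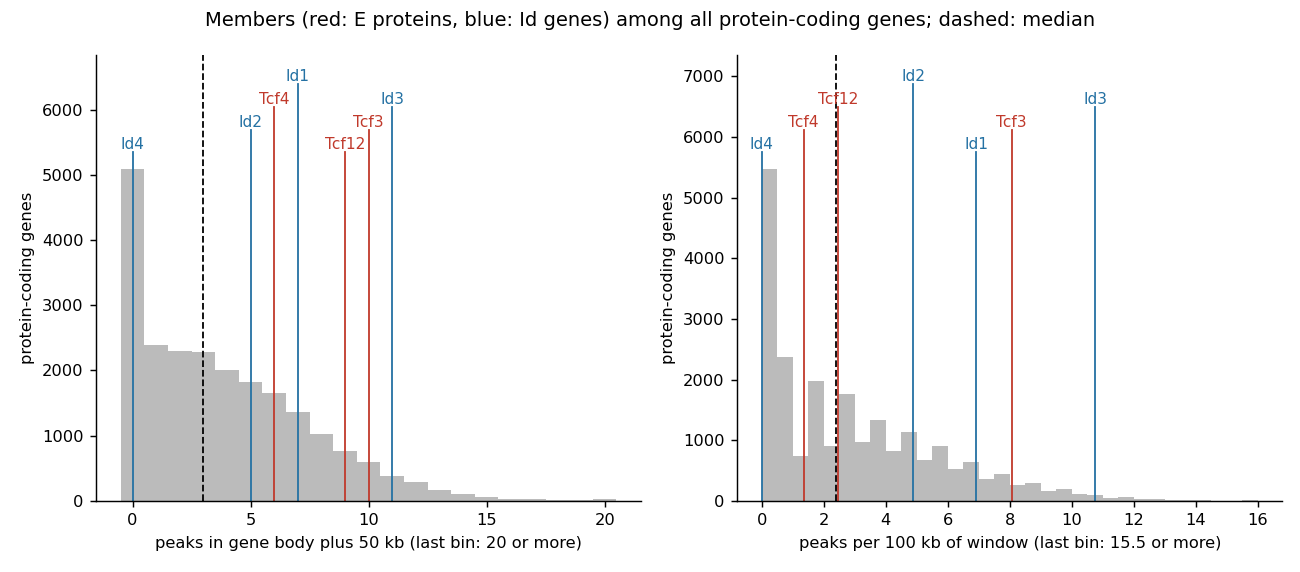
Histograms of the number of peaks in the gene body plus 50 kb (left) and of peaks per 100 kb of that window (right) over 22380 protein-coding genes, with E protein genes as red lines, Id genes as blue lines and the coding median as a dashed line (3 peaks, 2.38 per 100 kb). Id3 lies farthest right on both scales, Id4 lies at 0 on both, and Tcf4 changes sides of the median between them.

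The 48 peaks fell into 10 own-start peaks, 5 at E protein and 5 at Id genes, 32 distal peaks, 16 in each family, and 6 peaks at the starts of other genes only. Of the last, 4 lay in the Tcf3 window, 1 in the Id1 window and 1 in the Id3 window. The member peaks had a median width of 563 bp (239 to 1528 bp), with a 95% interval of the median from order statistics of 419 to 717 bp. That interval treats the 48 peaks as independent draws, although they are all the listed peaks of 7 chosen windows. It also pools own-start peaks (median 731 bp) with distal peaks (median 437 bp), and it measures no spread between libraries. The median of the whole list was 551 bp. Tcf4, Tcf12, Id1 and Id3 had 2 own-start peaks each, and 5.73% of all coding genes had more than 1. With peaks within 1 kb of each other joined, Id1 and Id3 had 1 each, and Tcf4 and Tcf12 kept 2. The same held when an own start had to lie inside the peak. The share of coding genes was not counted anew under these settings.

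**Figure D2:**
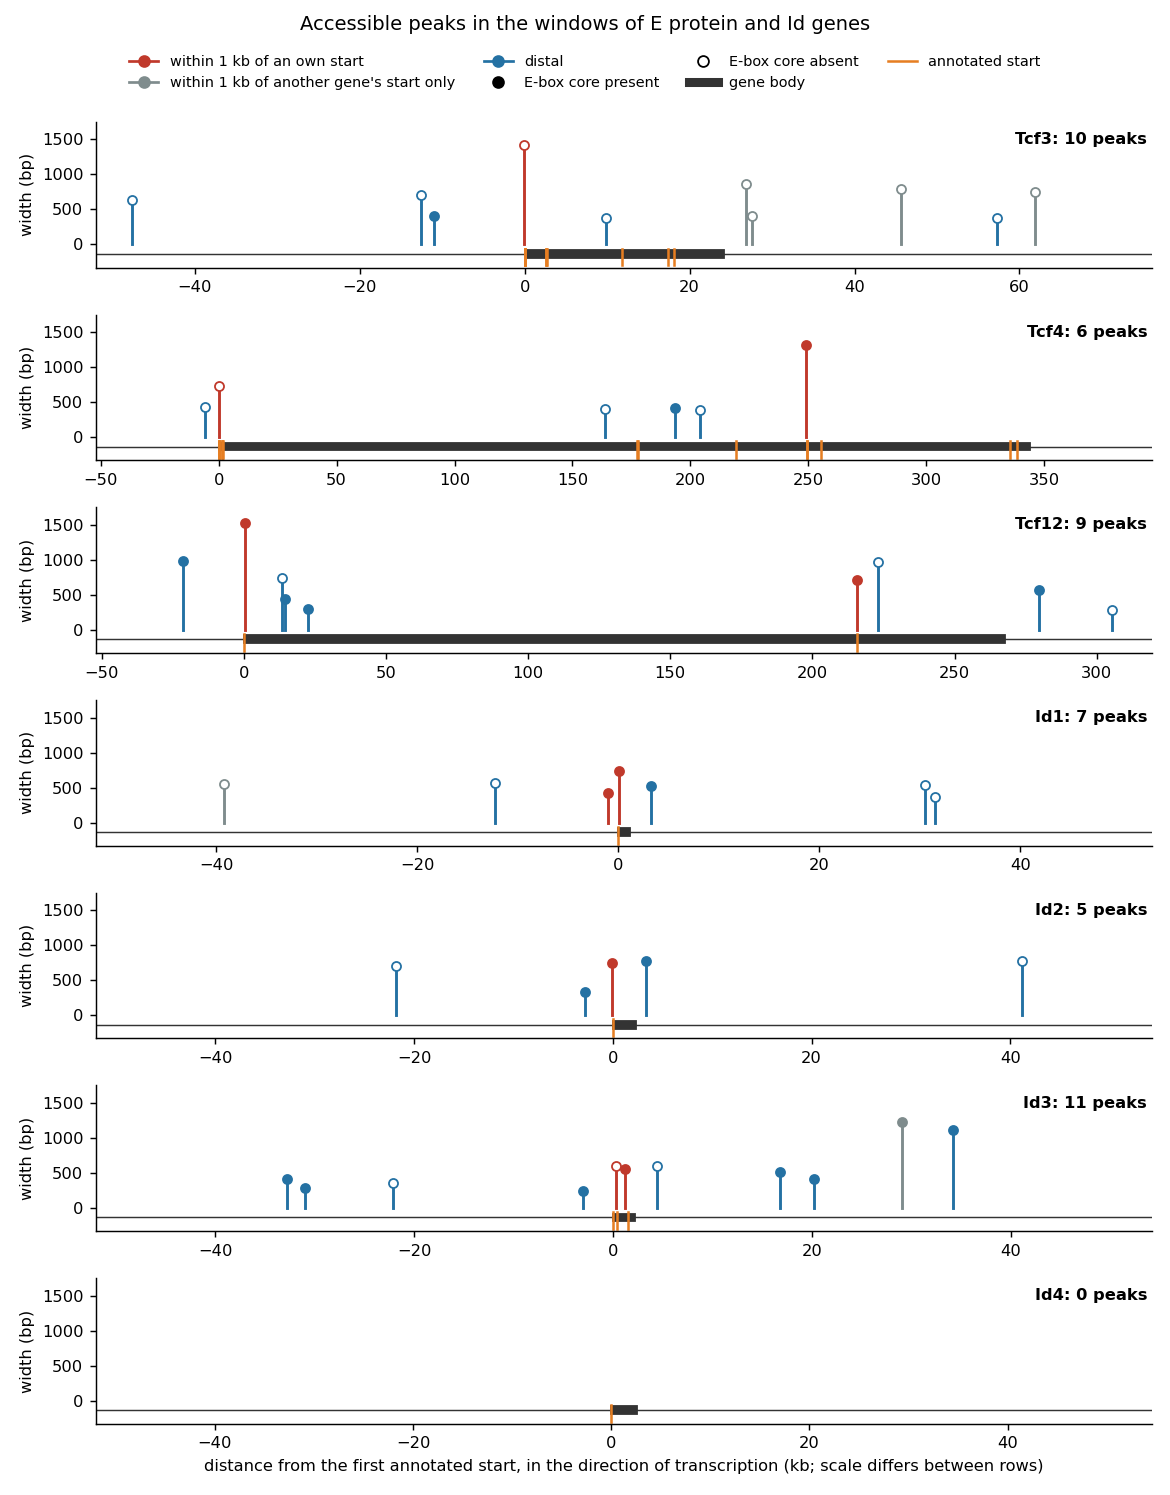
Peaks in the window of each gene, drawn at the distance of the peak centre from the first annotated start in kb (transcription runs to the right). Height is the peak width in bp. Red marks own-start peaks, grey peaks at starts of other genes only and blue distal peaks. Filled circles hold the E-box core CAGCTG. The peaks of Tcf3, Id1, Id2 and Id3 are spread on both sides of short gene bodies, 5 of 6 peaks of Tcf4 and 6 of 9 of Tcf12 overlap the long gene bodies, and Id4 has none.

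Tcf3 encodes an E protein that is required in B- and T-cell progenitors. The gene lies on the minus strand of chr10:79872259-79896392 (mm9) and has 14 annotated transcripts with 11 distinct starts. A single own-start peak of 1422 bp, chr10:79895784-79897205, covered the 5 starts that lie within 26 bp of each other at the 5′ end, reaching 813 bp upstream and 608 bp downstream of the first. It was wider than 93.2% of all peaks near transcript starts. The other 6 starts, 2.565 to 18.16 kb into the gene, had no peak within 1 kb. The nearest peak to the start of the coding transcript Tcf3-014 was an intronic distal peak of 372 bp that lay 1687 bp from it. Of the 9 other peaks of this gene-dense window, 4 lay at starts of other genes. On the 3′ side of Tcf3, 2 peaks lay at the start of Uqcr11, a gene of the mitochondrial respiratory chain, 1 at that of Mex3d, an RNA-binding protein gene, and 1 at those of the noncoding genes Gm15123 and Gm15124. On the 5′ side, 3 distal peaks lay 10.951, 12.599 and 47.654 kb upstream of the first start. The first of these, of 402 bp, held the E-box core CAGCTG 3 times. The second, of 712 bp, was the widest distal peak of the window and held no core but 5 E-boxes of other forms. Without peaks at starts of other genes, the count for Tcf3 fell from 10 to 6.

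Tcf12 encodes HEB, the E protein that pairs with the product of Tcf3 in thymocytes and that is also made as a short form from a start inside the gene. The gene spans 267.568 kb of the minus strand at chr9:71692059-71959626 and has 2 annotated starts, 215.736 kb apart, and each lay inside a peak. The peak at the first start, chr9:71958598-71960125, was the widest of all 48 at 1528 bp and reached 499 bp upstream and 1028 bp downstream. It had a GC content of 70.8%, an observed to expected CpG ratio of 0.966 and 14 copies of GGGCGG, the core of the GC box that Sp and Klf factors bind. The peak at the internal start, chr9:71743690-71744406, was 717 bp wide, with a GC content of 38.9%, a CpG ratio of 0.0738 and no copy of GGGCGG. The 2 starts of Tcf12 thus differed in GC content more than any other pair of the 10 own-start peaks, while each lay in open chromatin. Both peaks held the E-box core, in 2 copies at the first start and in 1 at the internal start. Between them, 192.311 kb of the gene held no peak. On the side of the first start, 3 intronic distal peaks lay 13.472, 14.538 and 22.761 kb into the gene, and beyond the internal start an intronic peak of 962 bp followed 6806 bp from it. The widest distal peak of the window, 979 bp with 2 E-box cores, lay 21.444 kb upstream of the gene.

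Tcf4 encodes the E protein known for its role in plasmacytoid dendritic cells and B cells, and is a different gene from Tcf7l2, whose product is also called TCF4. It is the longest of the 7 genes, with 343.822 kb at chr18:69503800-69847621 on the plus strand and 14 distinct starts for 15 transcripts. The first peak, chr18:69503652-69504381, was 730 bp wide and contained 3 starts, reaching only 148 bp upstream of the first. The other own-start peak, chr18:69752103-69753417, was 1315 bp wide and lay 249.271 kb inside the gene, where the coding transcripts Tcf4-007 and Tcf4-008 begin. It was wider than 89.8% of peaks near transcript starts, whereas the peak at the first start was wider than 34.5%. In all, 5 of 14 starts lay inside a peak and 6 within 1 kb of 1. Like Tcf12, Tcf4 therefore had an accessible start at the 5′ end and another deep inside the gene. The starts of the noncoding transcripts Tcf4-009 to Tcf4-011 lay 13384 to 15062 bp from the nearest peak. From the first own-start peak, 163.031 kb of the gene had no peak, and 3 intronic distal peaks of 388 to 414 bp followed 163.81, 193.406 and 203.933 kb into the gene. The middle 1 held the only E-box core among the 4 distal peaks. The fourth, of 432 bp and 5.939 kb upstream of the gene, was the widest of them. With peaks of at least 500 bp only, Tcf4 was left with its 2 own-start peaks.

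Id3 restrains E proteins in thymocytes and is a target of receptor signaling. The gene is 2.259 kb long, at chr4:135699412-135701670 on the plus strand, and had the most peaks of the 7 with 11, of which 8 were distal. Its 2 own-start peaks lay 234 bp apart. The first, chr4:135699460-135700065, began 48 bp downstream of the first annotated start and contained the start of the transcript Id3-002, and the other, chr4:135700300-135700854, lay within the gene, 35 bp from the start of Id3-003. Neither Id3-002 nor Id3-003 is annotated as coding. The first start of Id3 was thus the only first start among the 6 genes with peaks that lay outside a peak. The 8 distal peaks lay from 32.763 kb upstream to 34.234 kb downstream. The closest upstream, 3.006 kb before the start, was the narrowest of all 48 with 239 bp and held 2 E-box cores. The farthest downstream lay in an intron of E2f2, a cell-cycle factor gene, and was the widest distal peak of all members, 1112 bp at chr4:135733091-135734202, with 5 E-box cores. Only 0.300% of all distal peaks, of any width, held that many. This peak was named for its count and was wider than 97.0% of distal peaks, and the chance of a match grows with width. A further peak of 1226 bp lay at the start of E2f2, 29.104 kb from the start of Id3, so that peaks on this side could belong to either gene.

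Id1 is a target of BMP and growth factor signaling in many progenitors. The gene is 1.16 kb long, at chr2:152561987-152563146 on the plus strand, with 1 start. A peak of 732 bp, chr2:152561666-152562397, covered that start from 321 bp upstream to 410 bp downstream and so reached into the short gene. The other own-start peak, chr2:152560755-152561172, was 418 bp wide and ended 815 bp upstream of the start. It held 2 E-box cores and the peak over the start held 1. A distance limit of 500 bp in place of 1 kb removed the upstream peak from the own-start class. Of 4 distal peaks, the widest, 570 bp at 12.228 kb upstream, held no E-box core but 3 copies each of GGGCGG and TGGGAA, the core of the RBPJ motif. A distal peak of 527 bp lay 3.241 kb downstream of the start and held 2 E-box cores, and the remaining 2 lay 30.537 and 31.553 kb downstream, the farther in an intron of Bcl2l1, which encodes an inhibitor of apoptosis.

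Id2 is needed for natural killer and innate lymphoid cells, in which E protein activity is low. The gene is 2.292 kb long, at chr12:25778666-25780957 on the minus strand, with 1 start. A single own-start peak of 746 bp, chr12:25780647-25781392, covered it from 435 bp upstream to 310 bp downstream. The gene was flanked by a distal peak on each side, of 326 bp at 2.777 kb upstream with 2 E-box cores and of 768 bp at 3.353 kb downstream with 1. The downstream peak also held the related E-box CACCTG 6 times. The upstream peak had a GC content of 72.1% and a CpG ratio of 0.954, the highest of both among all 32 distal peaks. The widest distal peak, 779 bp in an intron of Kidins220, lay 41.154 kb from the start and held no E-box core, and neither did the peak of 704 bp 21.851 kb upstream. All 5 peaks of the Id2 window lay outside the 1 kb around starts of other genes.

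Among the 10 own-start peaks the median width was 731 bp, compared with 855 bp for all peaks within 1 kb of any transcript start. Those of the E proteins were 717 to 1528 bp wide with a median of 1315 bp and those of the Id genes 418 to 746 bp with a median of 606 bp. Both families overlapped in this measure through the internal Tcf12 peak, the first Tcf4 peak and the peaks over the starts of Id1 and Id2. Copies of GGGCGG were present in 9 of the 10, against 76.6% of all peaks near starts, and the exception was the internal Tcf12 peak. The E-box core CAGCTG was present in 7 of 10, against 40.5%, and was missing from the peak of Tcf3, the first of Tcf4 and the first of Id3. The RBPJ core TGGGAA was present in 8 of 10, against 48.4%. Peaks of the members and of the list differ in width and the chance of holding 6 given letters grows with width, so these shares are descriptions.

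**Figure D3:**
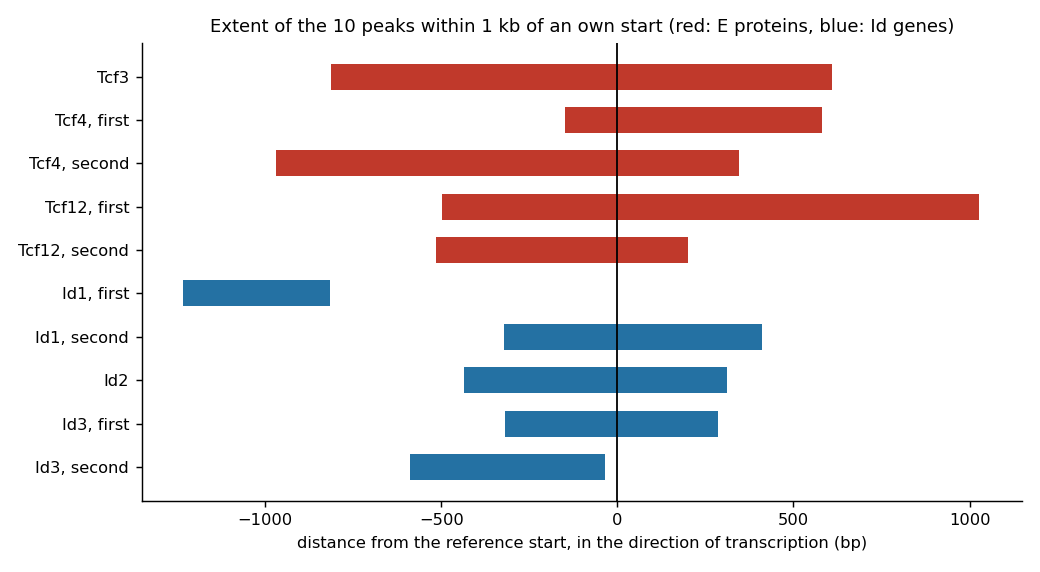
Extent of the 10 own-start peaks in bp around a reference start of the gene (0; negative is upstream in the direction of transcription), red for E proteins and blue for Id genes; the reference is the first own start inside the peak or, for the first peak of Id1 and the second of Id3, the nearest own start. The peaks at Tcf3, Tcf12 (first) and Tcf4 (second) are the widest, and 8 of the 10 contain a start.

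The bases just before the start show how the starts of the family differed in sequence. They are given for both starts of Tcf12 and for Id1 and Id2, whose starts lay inside a peak, for the first start of Id3, which lay 48 bp before its peak, and for the start of Id4, where no peak was listed. Each is the 150 bases before the annotated start, read from the mm9 assembly on the strand of the gene, with GGGCGG or its complement, TATAAA and E-boxes (CANNTG) in capitals. Their places are chr9:71959627-71959776 (minus strand) and chr9:71743891-71744040 (minus) for Tcf12, chr2:152561837-152561986 (plus) for Id1, chr12:25780958-25781107 (minus) for Id2, chr4:135699262-135699411 (plus) for Id3 and chr13:48356646-48356795 (plus) for Id4.
Tcf12 first start: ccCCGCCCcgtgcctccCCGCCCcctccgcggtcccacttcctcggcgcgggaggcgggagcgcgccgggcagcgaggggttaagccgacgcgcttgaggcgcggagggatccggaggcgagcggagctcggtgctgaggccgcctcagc
Tcf12 internal start: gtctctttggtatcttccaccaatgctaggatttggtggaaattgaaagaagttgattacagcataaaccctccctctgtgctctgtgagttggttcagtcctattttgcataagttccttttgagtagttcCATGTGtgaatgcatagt
Id1: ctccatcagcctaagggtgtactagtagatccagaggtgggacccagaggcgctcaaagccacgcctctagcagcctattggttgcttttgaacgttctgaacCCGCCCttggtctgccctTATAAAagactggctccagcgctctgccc
Id2: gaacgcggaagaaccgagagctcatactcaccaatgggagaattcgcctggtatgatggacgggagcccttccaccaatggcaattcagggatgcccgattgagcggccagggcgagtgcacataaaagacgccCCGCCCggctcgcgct
Id3: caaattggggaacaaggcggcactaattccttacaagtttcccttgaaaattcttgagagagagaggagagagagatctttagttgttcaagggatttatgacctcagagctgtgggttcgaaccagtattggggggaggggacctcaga
Id4: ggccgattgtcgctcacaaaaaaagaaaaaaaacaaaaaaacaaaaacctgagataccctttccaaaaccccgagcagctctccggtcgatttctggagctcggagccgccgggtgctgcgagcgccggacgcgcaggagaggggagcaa

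Within these windows, the first start of Tcf12 had 23 CpG dinucleotides and 2 copies of the GC box core, whereas its internal start had no CpG, no GC box core and 1 E-box. The start of Id1 was the only 1 of the 6 with TATAAA, the letters of the TATA box, which occurred before 7.88% of the first starts of coding genes. A GC box core was found before the starts of Id1 and Id2 as well and before 35.4% of coding starts. CCAAT, the core bound by NF-Y, was found on either strand 2 times each before the starts of Id2 and Id3, 1 time before that of Id1 and 1 time before the internal start of Tcf12, against 26.1% of coding starts with at least 1. No E-box of any kind was found in these 150 bases at the first start of Tcf12, Id1, Id2, Id3 or Id4, while 44.6% of coding starts had 1 or more and 7.51% had CAGCTG. All letters were searched on both strands, and a match is no evidence that a factor binds.

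The width of the distal member peaks ranged from 239 to 1112 bp, and their median of 437 bp compared with 465 bp over all 21005 distal peaks of the list. The letters CAGCTG, the E-box form that reads the same on both strands and is among those E proteins favour, were present in 15 of 32 distal peaks, a share of 46.9% (Wilson 95% interval 30.9 to 63.6%, which covers counting only), against 43.9% of all distal peaks. The member share therefore lay close to that of the list. In sites per kb of distal peak, members had 1.54 (26 sites) and all distal peaks 1.20. In the central 200 bp of the peak, where the accessibility signal is usually highest, the core was present in 12 of 32, or 37.5%, against 25.7%. Peaks with at least 2 cores made up 7 of 32, or 21.9%, against 14.2%.

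By gene, the core was present in 6 of 8 distal peaks of Id3, 4 of 7 of Tcf12, 2 of 4 of Id2, 1 of 4 of Id1, 1 of 4 of Tcf4 and 1 of 5 of Tcf3. The Id genes together had it in 9 of 16, or 56.3% (33.2 to 76.9%), at 2.00 sites per kb, and the E protein genes in 6 of 16, or 37.5% (18.5 to 61.4%), at 1.07 per kb. The intervals overlapped, and in the central 200 bp each family had 6 of 16. The E-box CACCTG, which zinc-finger repressors such as Zeb1 also bind, was present in 19 of 32, or 59.4%, against 48.8%. Any E-box, CANNTG, which includes both, was present in 29 of 32, or 90.6%, against 94.3%.

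The E-box sites are shown for the distal peak with the most cores in the windows of Tcf3, Tcf12, Id1, Id2 and Id3. Each stretch is 200 bases outside annotated exons, read on the plus strand of mm9, with CAGCTG in capitals. They lie at chr10:79907152-79907351 (10.951 kb upstream of Tcf3 by the peak centre), chr9:71980775-71980974 (21.444 kb upstream of Tcf12), chr2:152565123-152565322 (3.241 kb downstream of the Id1 start), chr12:25783698-25783897 (2.777 kb upstream of Id2) and chr4:135733981-135734180 (34.234 kb downstream of the Id3 start, in an intron of E2f2).
Tcf3 distal peak: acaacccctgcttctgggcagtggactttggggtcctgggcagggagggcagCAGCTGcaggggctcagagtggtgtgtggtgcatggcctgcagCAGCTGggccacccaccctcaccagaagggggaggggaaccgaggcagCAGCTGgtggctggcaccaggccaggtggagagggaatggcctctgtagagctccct
Tcf12 distal peak: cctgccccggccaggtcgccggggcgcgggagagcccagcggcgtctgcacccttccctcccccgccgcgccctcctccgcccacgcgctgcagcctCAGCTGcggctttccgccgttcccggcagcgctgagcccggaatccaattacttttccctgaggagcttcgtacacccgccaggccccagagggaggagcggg
Id1 distal peak: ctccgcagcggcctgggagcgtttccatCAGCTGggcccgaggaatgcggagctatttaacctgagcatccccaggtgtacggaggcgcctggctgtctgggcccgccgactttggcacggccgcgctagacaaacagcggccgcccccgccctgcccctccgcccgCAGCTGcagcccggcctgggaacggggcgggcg
Id2 distal peak: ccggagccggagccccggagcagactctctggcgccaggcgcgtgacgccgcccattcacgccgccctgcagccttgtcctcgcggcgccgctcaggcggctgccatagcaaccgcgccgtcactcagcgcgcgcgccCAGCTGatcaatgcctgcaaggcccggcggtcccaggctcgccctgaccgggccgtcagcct
Id3 distal peak: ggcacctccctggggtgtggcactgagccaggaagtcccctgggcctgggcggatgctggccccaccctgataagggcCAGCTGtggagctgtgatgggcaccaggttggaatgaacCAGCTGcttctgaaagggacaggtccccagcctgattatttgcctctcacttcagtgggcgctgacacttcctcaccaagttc

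In the Tcf3 stretch, all 3 sites of the peak lay in a row, 43 and 48 bp from the start of 1 site to the start of the next. Each was preceded by the letters CAG, so that CAG was repeated at every site. In the Id1 stretch both sites of the peak were 139 bp apart. In the Id3 stretch 2 of the 5 sites of the peak were seen, 39 bp apart. The stretches of Tcf12 and Id2 held 1 of 2 sites each. The stretches had GC contents of 61.0% at Id3 to 74.5% at Id2, above the median of 50.1% of all distal peaks.

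The motif letters of other factors were counted in the same 32 distal peaks, and binding in these cells was not measured. TGTGGT, the core of the Runx motif, whose factors are required in T-cell progenitors, was present in 9 of 16 distal peaks of the E protein genes, or 56.3% (33.2 to 76.9%), and in 2 of 16 of the Id genes, or 12.5% (3.50 to 36.0%). Over all distal peaks the share was 45.5%. Both Id peaks with it lay at a distance from the gene, in introns of Kidins220 and of E2f2. The GC box core GGGCGG was present in 4 of 16 at E protein genes (interval 10.2 to 49.5%), and in 7 of 16 at Id genes, or 43.8% (23.1 to 66.8%). Its share over all distal peaks was 17.9%, below that of both families. For TGTGGT and for GGGCGG the intervals of the families overlapped, for TGTGGT only from 33.2 to 36.0%. Such overlap does not show that the shares agree, and no difference was tested. For both motifs the list share lay inside the interval of the E protein genes and outside that of the Id genes. The RBPJ core TGGGAA, through which Notch acts, was present in 12 of 32, or 37.5% (22.9 to 54.7%), against 39.2%, with 4 at E protein genes and 8 at Id genes.

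Base composition moved with these counts. The median GC content of distal peaks was 57.9% at Id genes and 47.0% at E protein genes, against 50.1% over the list. Distal peaks with a GC content of at least 50% numbered 13 of 16 at Id genes and 6 of 16 at E protein genes. Within this richer class, TGTGGT was present in 2 of 13 peaks at Id genes and 4 of 6 at E protein genes, against 42.0% of all such distal peaks, and GGGCGG in 7 of 13 and 4 of 6, against 26.0%. Within this class CAGCTG was present in 8 of 13 and 3 of 6, against 49.5%. The part of base composition in these counts was not tested. Of the 32 distal peaks, 5 were CpG-rich (GC content of at least 50% and a CpG ratio of at least 0.6), against 2.94% of all distal peaks. They were 2 at Id3, 1 at Id1, 1 at Id2 and 1 at Tcf12, and 3 of these 5 held CAGCTG.

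Id4 had no peak in its window of 102.61 kb, as was the case for 5093 coding genes, or 22.8%. The gene lies on the plus strand of chr13:48356796-48359405 and has 1 start. The 1 kb around that start had a GC content of 67.8% and a CpG ratio of 1.06, the highest ratio of the 7 genes. CpG-rich first starts, by the thresholds given above, had an own-start peak in 76.2% of 9880 coding genes and the remaining starts in 23.8% of 12500. Of the other members, Tcf3 (64.6%, ratio 0.946), Tcf12 (72.4%, 0.990), Tcf4 (52.9%, 0.658), Id2 (59.3%, 0.658) and Id3 (51.7%, 0.672) had CpG-rich first starts, and Id1 (55.1%, 0.597) lay just under the ratio. Id4 was thus the only member with a CpG-rich start and no own-start peak.

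**Figure D4:**
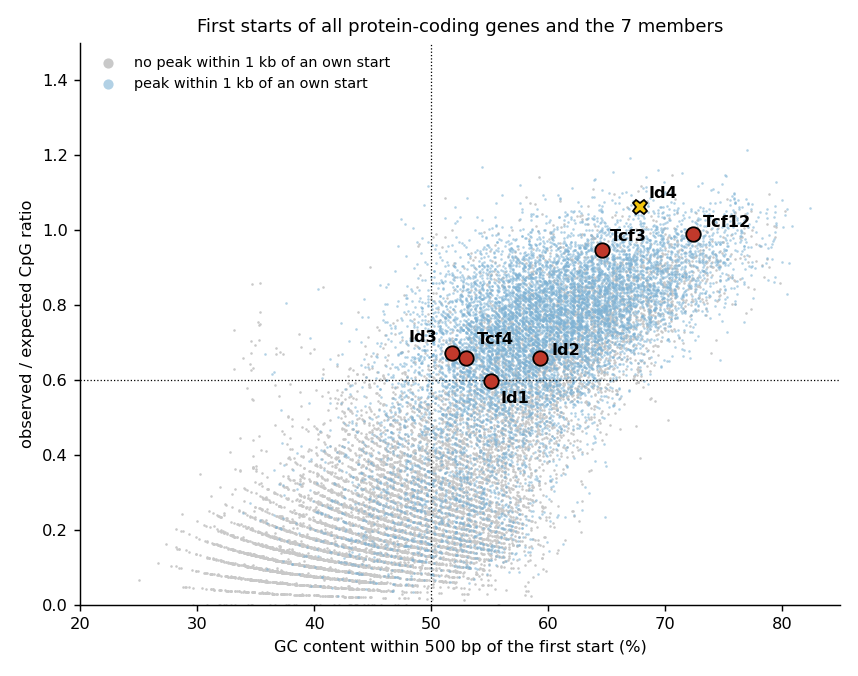
GC content (%) against the observed to expected CpG ratio in the 1 kb around the first start of 22380 protein-coding genes, blue with and grey without an own-start peak; red circles are members with an own-start peak, the yellow cross is Id4, and dotted lines mark 50% and 0.6. Id4 lies among the CpG-rich starts at 67.8% and 1.06, between starts that mostly have a peak.

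The stretch without peaks around Id4 reached far beyond its window. The nearest peak upstream ended 905.9 kb before the start and the nearest downstream began 251.601 kb after it, at chr13:48608397. The interval between them, 1157.5 kb, was longer than 98.8% of the 32505 intervals between neighbouring peaks of the list, whose median was 18.9 kb, and 378 intervals were at least as long. It wholly contained 5 genes, of which 3 were coding (4931429P17Rik, Id4 and Zfp169) and the lincRNA genes A330033J07Rik and A330048O09Rik were not. A330033J07Rik overlaps Id4 on the opposite strand. The gap thus covered a region of several genes.

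Genes with a pattern most like that of each member were sought among all other coding genes by the distance over 4 measures, the number of peaks in the window, of own-start peaks and of distal peaks with CAGCTG, and gene length, each on a log scale and divided by its SD. The nearest gene was Notch4 for Tcf3 (10 peaks, distance 0.00256), Prdm16 for Tcf4 (6 peaks, 0.0422) and Ndufb11 for Id2 (5 peaks, 0.000530). Tcf12 was nearest to Foxp1 (9 peaks, 0.148) and Id1 to Nme3 (8 peaks, 0.159). Id3 had the least similar neighbour, Cebpb with 10 peaks at a distance of 0.387, and no coding gene lay within 0.1 of Tcf12, Id1 or Id3. Id4, with no peak, had 198 coding genes within that distance, with Gm904 first at 0.000233. Foxp1 equalled Tcf12 in its counts (9 peaks, 2 own-start peaks and 4 distal peaks with CAGCTG). It differed only in gene length, 341.195 against 267.568 kb. The members thus ranged from a pattern held by many short genes, at Id4, to patterns with no coding gene within 0.1. That limit was not planned, and a distance above it can rest on gene length or on 1 peak.

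Other genes of the E protein pathway were counted in the same way. The class II basic helix-loop-helix factors pair with E proteins in single tissues, such as muscle, nerve or blood stem cells. Of 26 such genes, 1 had an own-start peak, Bhlha15, and 15 had a peak in the window, with a median of 1.5 peaks (0 to 12). The coding background was 46.9% with an own-start peak and a median of 3. The blood factors Lyl1 and Tal1 had 12 and 3 peaks in their windows and no own-start peak. Of 10 cofactor genes, 7 had an own-start peak, including those of the acetyltransferases Ep300, Crebbp and Kat2b, and the median was 5.5 peaks (0 to 13). Runx1t1, Lmo1 and Lmo2 had none at their starts. Cbfa2t3, a corepressor gene, had 13 peaks, and 10 of its 11 distal peaks held CAGCTG. Of 5 zinc-finger repressor genes that bind E-boxes, Zeb1 and Snai1 had an own-start peak, and Zeb2 and Snai2 had no peak in the window. All 7 genes of a list of E protein targets in T-cell progenitors, Ptcra, Rag1, Rag2, Cd4, Notch1, Il7r and Gfi1, had an own-start peak, with a median of 9 peaks (4 to 17, the highest at Notch1), and 4 of these 7 are also among the progenitor T-cell markers above. The windows of Rag1 and Rag2, which are neighbours in the genome, overlap.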

How the data were processed

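The 6 ATAC-Seq libraries of Beko cells (3 GSI, 3 DMSO) were mapped to groups by their titles. The methods of the study state that the authors used trimGalore for trimming and HISAT2 (version 2.2.1 in the submitters' processing notes) for alignment to mm9, with 1 alignment kept for each read. Duplicate reads were taken out with Picard. MACS2 was run with no input, and a peak had to occur in at least 3 of the 6 libraries and outside blacklisted regions. A shift of read ends for the transposase is not given in the sources used here. The deposited list gives chromosome, start and end in bp. The deposited score is 0 throughout and was not used. Reads of repeated sequence can be placed at 1 of several equal sites, and calling without input takes the background from the library itself, which both affect which intervals appear.

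Starts were read as counted from 0 and are printed counted from 1. Genes and starts came from GENCODE vM1 on NCBIM37, the same assembly as mm9. Python 3.11.15, numpy 2.4.6, scipy 1.17.1 and matplotlib 3.10.9 were used. No feature was tested, since no value per library exists. Shares have Wilson 95% intervals, which cover counting only. Letters were searched on both strands, and overlapping motifs were each counted. The scripts were tested on simulated data with known answers, where 602 of 602 planted values were recovered. Members, motifs and gene lists were chosen with earlier results of these data known. Named were all own-start peaks, the widest distal peak and the distal peak with most CAGCTG of each member, coding neighbours with a start at a peak, and the most alike gene. Other peaks and genes named were chosen after their values were seen. Alternatives were other window reaches, peak widths, joining, start distances, start types and motif letters. Protein sequences were not used here.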

Additional observations from a re-analysis of the deposited data

How the results depend on the processing

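Of 36 values of the 5 main results under other settings, 27 were labelled the same as the reported value and 9 were labelled moved. The label was wide. It took in CAGCTG shares of 37.5% and 60.0% against 46.9%, and a median width of 717 bp in gene bodies only, against 563 bp. Some values could not move. Leaving out peaks near starts of other genes kept the CAGCTG share at 15 of 32, since distal peaks exclude such peaks by definition. The 27 are therefore no measure of robustness. The number of peaks at the 7 genes moved from 48 to 26 with 10 kb flanks, 81 with 100 kb flanks, 17 in gene bodies only and 29 with peaks of at least 500 bp, and the median count per gene moved from 7 to 4, 12 and 2 with the first 3 of these. The median width was 732 bp with peaks of at least 500 bp only, by construction. With any E-box in place of CAGCTG the share of distal peaks was 90.6%. Otherwise the CAGCTG share ranged from 37.5% (gene bodies only, or the central 200 bp) to 60.0% (100 kb flanks). The number of genes with an own-start peak was 6 under each alternative run, and Id4 had 0 peaks under each.

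No paired analysis was possible because values per library are missing from the list, and for the same reason leaving out replicates and comparing GSI with DMSO were not run. The resolution is set by the calling in at least 3 libraries, whose depth was not used here, so a missing peak is no measure of closed chromatin.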
